A study of Rattus norvegicus with 2 samples.

Results

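Natural killer cells of the rat lung were taken from dissociated lung cells by a marker gate. The cells had been profiled by single-cell RNA sequencing in droplets, and members were chosen by their measured counts of marker genes. A barcode entered the gate when it had at least 200 genes, a unique molecular identifier (UMI, 1 captured RNA molecule) of at least 2 of the genes Ncr1, Prf1, Gzmb, Gzma, Gzmm, Klre1, Klrd1 and Nkg7, at least 0.3% of its UMIs in these 8 genes together, and no UMI of Cd3e, Cd3d, Cd3g, Cd79a or Ms4a1. The gate held 421 of 12450 barcodes in the explosion library and 442 of 21096 in the control library, or 863 of the 33546 barcodes with at least 200 genes in the series. The explosion library came from gas-explosion rats and the control library from unexposed rats, all kept pathogen-free, and the purpose given for the study was to see how lung cells vary after blast. In both, the lungs were cut up, digested with collagenase, papain and DNase, lysed to remove red cells and passed over beads that remove dead cells. Strain, sex, age, the time from blast to sampling and the number of animals per library are not given in the sources used here.

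There was 1 library per group, so no difference between explosion and control has a replicate check, no test was run and no p-value is given. Values in parentheses after a share or ratio are its 95% interval, which covers no error but that of counting. Depth differed strongly between the libraries. The explosion library held 9017416 UMIs with a median of 546.0 per barcode with at least 200 genes, and the control library 139486248 with a median of 4920.5. Gate members had a median of 608.0 UMIs and 485 genes in the explosion library, against 1651.5 UMIs and 885 genes in the control library. Together they held 291254 explosion and 800358 control UMIs. The airway transcript Scgb1a1 had a UMI in all 421 explosion and all 442 control members, at 0.890% and 4.03% of their UMIs, although natural killer cells should lack it. Ribosomal RNA precursor (Rn45s) took 0.482% of the explosion and 0.0196% of the control members' UMIs, mitochondrial ribosomal RNA 4.01% and 1.31%, and ribosomal protein genes 8.16% and 20.2%. Their part in the results below was not tested. The libraries shared 85 barcode sequences, none of them a member in both.

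Natural killer cells are innate lymphocytes that kill infected, stressed or transformed cells without a rearranged antigen receptor. They store perforin (Prf1), which opens the target membrane, and granzymes, serine proteases that enter through it, in lytic granules, and release them when signals from activating receptors such as Ncr1 (NKp46) outweigh those from inhibitory lectin-like receptors that read MHC class I. Interleukins of the common gamma chain family and interleukin 12 drive their growth and cytokine output, and the T-box factors Eomes and T-bet (Tbx21) keep their identity. The lung holds many of them.

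The promoters of the granzymes that define the gate carry a sequence bound by the Runx family, whose member Runx3 is active in cytotoxic lymphocytes, and are shown for that reason. Promoter windows of 300 bases, from 250 before to 50 after the gene start, came from RefSeq on GRCr8, a different build from the mRatBN7.2 and rn6 in the submitters' processing notes. They were found for 6 of the 8 rule genes, Prf1, Gzmb, Gzma, Gzmm, Klre1 and Nkg7. Sequences run 5′ to 3′ on the gene's strand, with TGTGGT and its reverse complement ACCACA in capitals. Gzmb lies at chr15:34462420-34462719, Gzma at chr2:46485647-46485946 and Gzmm at chr7:10667207-10667506, all on the minus strand.
Gzmb: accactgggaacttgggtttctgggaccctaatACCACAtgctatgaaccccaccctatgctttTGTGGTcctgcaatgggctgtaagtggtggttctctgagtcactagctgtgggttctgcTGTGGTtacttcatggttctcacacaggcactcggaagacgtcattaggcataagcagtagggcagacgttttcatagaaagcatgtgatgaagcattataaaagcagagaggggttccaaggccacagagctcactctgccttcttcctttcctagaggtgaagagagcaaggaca
Gzma: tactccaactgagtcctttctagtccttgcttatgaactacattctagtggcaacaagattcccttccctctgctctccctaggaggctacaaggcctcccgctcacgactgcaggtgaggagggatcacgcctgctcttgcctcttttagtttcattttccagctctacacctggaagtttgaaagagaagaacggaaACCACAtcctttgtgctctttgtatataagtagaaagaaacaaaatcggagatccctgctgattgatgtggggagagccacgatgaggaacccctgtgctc
Gzmm: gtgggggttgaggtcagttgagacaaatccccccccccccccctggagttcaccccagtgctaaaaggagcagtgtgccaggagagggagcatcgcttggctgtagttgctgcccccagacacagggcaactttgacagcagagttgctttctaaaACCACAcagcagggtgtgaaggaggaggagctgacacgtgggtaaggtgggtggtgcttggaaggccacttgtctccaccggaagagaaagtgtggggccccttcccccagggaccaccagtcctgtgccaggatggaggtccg

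The 6-base sequence TGTGGT, read on both strands, was in 5 of the 6 windows (Prf1, Gzmb, Gzma, Gzmm and Nkg7) and in 17.3% of 33469 rat promoter windows of the same length. Its extension TGTGGTT, which overlaps it, was in 3 of the 6 (Gzmb, Gzma and Gzmm) and in 5.57% of all. The Gzmb window held 3 copies of the 6-base sequence. The T-box sequence GGTGTGA was in 1 of the 6 windows, that of Gzmm, and in 3.83% of all, and the Ets sequence ACAGGAA in 0 of the 6 and in 8.49% of all. A match is a description of the letters in the window. Runx3 itself had 262 UMIs in the explosion and 417 in the control members, or 899.6 and 521 CPM (UMIs per 1000000 UMIs of the group).

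The members' rule genes were the cytolytic and receptor genes that chose them, and their values are a description. Perforin, Prf1, had 610 UMIs and 2094 CPM in explosion members, against 1068 UMIs and 1334 CPM in control members. Gzmb, the granzyme that activates caspases in the target, had 448 UMIs and 1538 CPM in explosion members, against 986 UMIs and 1232 CPM in control members. Gzma, a tryptase, had 821 UMIs and 2819 CPM in explosion members, against 2019 UMIs and 2523 CPM in control members. On the CPM scale these 3 effectors were at a similar or higher level in the explosion members. Gzmm, the granzyme that cuts after methionine, ran the other way, with 347 UMIs and 1191 CPM in the explosion members and 2416 UMIs and 3019 CPM in the control members. Nkg7, a granule membrane protein, had 448 UMIs and 1538 CPM in the explosion members and 1486 UMIs and 1857 CPM in the control members. The receptors were sparse. Ncr1 had 68 UMIs and 233 CPM in explosion members, against 145 UMIs and 181 CPM in control members. Klrd1 (CD94), the partner chain of NKG2 receptors, had 78 UMIs and 268 CPM in explosion members, against 425 UMIs and 531 CPM in control members. Klre1, a lectin-like receptor, had 34 UMIs and 117 CPM in explosion members, against 124 UMIs and 155 CPM in control members.

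Members varied in how much of the program they showed. The share of a barcode's UMIs in the 8 genes ran between 0.301% and 3.04% with a median of 0.956% in the explosion library, and between 0.301% and 4.47% with a median of 1.07% in the control library. At least 4 of the 8 genes had a UMI in 207 explosion members (49.2%) and 374 control members (84.6%), and all 8 in 0 explosion and 16 control members. Barcodes just inside the threshold, with 0.3 to 0.4% of UMIs in the rule genes, numbered 26 in explosion and 22 in control, with a median of 706.5 and 2142.5 UMIs and 1.01% and 2.06% of UMIs in natural killer markers outside the rule. Those just outside, with 0.2 to 0.3%, numbered 29 in explosion and 21 in control, with a median of 1053 and 5633 UMIs and 0.586% and 1.41% in these markers. In both libraries the barcodes just outside were deeper than those just inside, an order that the rule partly sets. Both groups needed UMIs of at least 2 rule genes, so a lower percent requires a deeper barcode. Where 2 UMIs already made up 0.3% of a shallow barcode, the percent condition left none out.

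**Figure D1:**
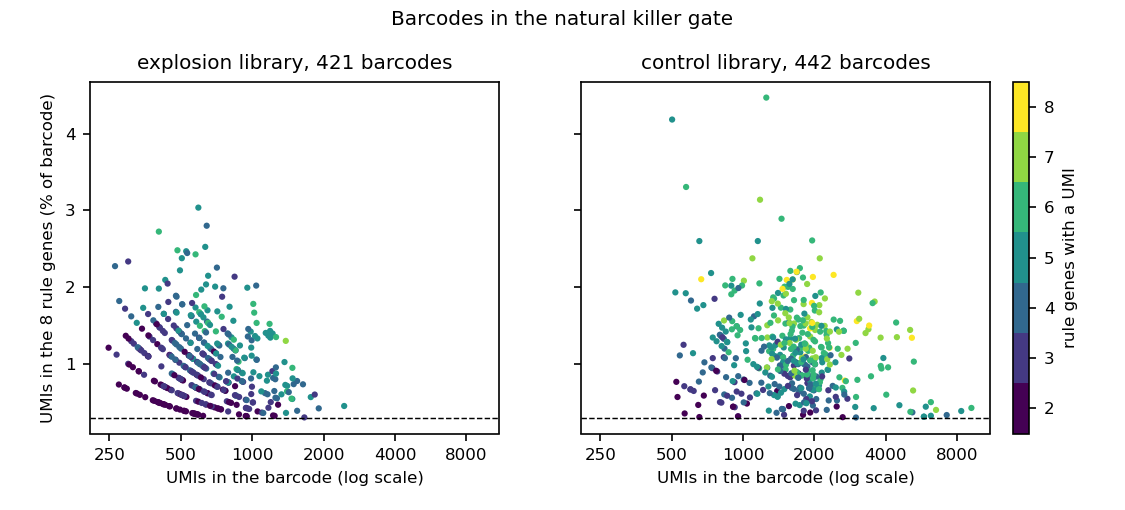
Each point is 1 barcode of the gate, with its UMIs on a log scale on the x axis, the percent of its UMIs in the 8 rule genes on the y axis and the number of rule genes with a UMI as colour. The dashed line is the 0.3% threshold. The 421 explosion members sit at 248 to 2444 UMIs and 49.2% of them hold at least 4 rule genes, and the 442 control members sit at 502 to 9185 UMIs and 84.6% of them do.

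Because the libraries differed in depth, the rule was also applied to barcodes thinned to 500 UMIs each, which left 289 explosion and 438 control barcodes. Ncr1 had a UMI in 14.0% of explosion and 25.8% of control members at full depth, and in 13.1% and 7.99% at equal depth. Prf1 stood at 68.6% in explosion and 80.1% in control at full depth and at 65.4% and 51.1% at equal depth, and Gzmb at 59.4% and 69.5% and then at 52.2% and 43.4%. For these 3 genes the order of the libraries turned with depth. Gzmm kept its order, with 54.2% of explosion and 95.9% of control members at full depth and 47.1% and 79.0% at equal depth, and so did Klrd1, with 15.9% and 56.6% and then 11.8% and 25.1%. At least 4 rule genes were detected in 39.4% of explosion and 46.6% of control barcodes at equal depth. In all other barcodes, which mostly lack these genes, the share with a UMI at full depth was between 0.0665% for Klre1 and 1.40% for Prf1 in the explosion library and between 0.15% for Klre1 and 2.94% for Nkg7 in the control library.

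**Figure D2:**
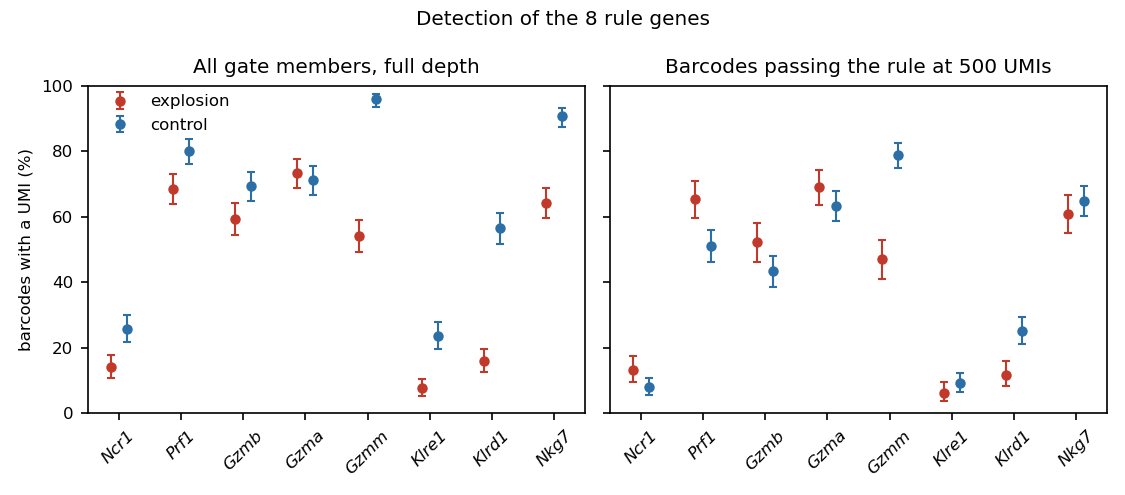
The percent of barcodes with a UMI of each rule gene is shown for all gate members (left) and for barcodes that passed the rule after thinning to 500 UMIs (right). Points are shares and bars 95% Clopper-Pearson intervals, with explosion in red and control in blue. Gzmm is at 47.1% and 79.0% and Klrd1 at 11.8% and 25.1% at equal depth, while Prf1 is at 65.4% and 51.1%.

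Genes outside the rule were read to check the natural killer label. The T cell receptor constant genes were not analysed here, so at this depth T cells without a Cd3 UMI can be among the members, and with a UMI of Cd5 or Cd6 also barred 409 explosion and 409 control members remained. Of 29 natural killer markers outside the rule, 3 had no UMI in explosion members (Klrb1, Ncr3 and Cma1) and 1 none in control members (Ncr3), and together they held 1.45% of the UMIs of explosion and 4.21% of those of control members. In 219 explosion and 1254 control T cells, taken as barcodes with Cd3 genes at 0.1% of UMIs or more, they held 0.229% and 0.514%. They held 0.154% and 0.211% in 186 explosion and 762 control B cells, and in all barcodes outside the gate (called the other barcodes, T and B cells included) 0.274% and 0.461%. Ccl5 gave much of this, and the other 28 markers held 0.711% in explosion and 1.21% in control members, against 0.191% and 0.2503% in T cells and 0.263% and 0.449% in the other barcodes. In both libraries 24 of the 29 markers had a higher CPM in members than in T cells, and 25 a higher CPM than in the other barcodes. These counts take no account of counting error. Klra5, Klri2 and Ly49si1, among the 24, had 1, 3 and 5 UMIs in explosion members, too few to tell the groups apart. Ctsw and Cd247, a signalling chain shared with T cells, were not higher than in T cells, with Ctsw at 85.8 and 216 CPM in explosion and control members and 136 and 292 CPM in T cells. Tyrobp and Fcer1g, which macrophages also use, had 1370 and 1167 CPM in explosion members, near the 1100 and 1080 CPM of the other explosion barcodes. The T-box factors were higher in the gate. Eomes had 251 and 155 CPM in explosion and control members, 71.7 and 6.0 CPM in T cells and 7.3 and 0.6 CPM in the other barcodes. Tbx21 had 385 and 249 CPM in explosion and control members, 43.0 and 15.9 CPM in T cells and 7.8 and 1.0 CPM in the other barcodes. Il2rb, a receptor chain for interleukin 2, had 1033 and 666 CPM in members and 31.0 and 3.4 CPM in other barcodes. Genes with the highest gate to other ratio in both libraries were Gzmbl1 (95.3-fold in explosion, 1013-fold in control), Il12rb2, which binds interleukin 12 (80.7 and 279), Clnk, an adaptor of immunoreceptor signalling (71.9 and 260), Gzmk (69.6 and 304), the inhibitory receptor Klrg1 (69.1 and 395), Klrc3 (68.8 and 413), the chemokine Ccl5 (64.9 and 234) and Tbx21 (49.1 and 246), with LOC100362418 and RGD1562667 beside them. How the counting split reads between near-identical granzyme, Klr, Ly49 and RT1 genes is not known, so values of single family members are uncertain.

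Markers of other cell types were read in the same barcodes. T cell markers other than Cd3 held 0.0965% in explosion and 0.0987% in control members, against 0.329% and 0.212% in the T cells. Lef1, a T cell factor, had 48.1 and 57.5 CPM in explosion and control members and 609 and 565 CPM in T cells, and Cd5 had 2 and 4 UMIs in all members. B cell markers held 0.00412% in explosion and 0.00362% in control members. Macrophage markers held 0.245% and 0.371% in members and 1.01% and 1.98% in the other barcodes, with Lyz2 at 1981 and 3206 CPM in members, against 7795 and 17656 CPM in the others. Airway secretory markers held 0.907% and 4.33% in members, against 6.23% and 26.2% in the others. Alveolar epithelial markers held 0.125% in explosion and 0.0762% in control members, fibroblast markers 0.0814% and 0.00837%, and erythroid markers 0.0920% and 0.112%. The 9 type 2 innate lymphoid markers held 0.0299% in explosion and 0.0220% in control members, 0.0609% and 0.0192% in T cells and 0.0314% and 0.00876% in the other barcodes. Most of it was Rora, at 192 CPM in explosion and 116 CPM in control members, and Gata3, at 65.2 and 93.7 CPM, transcription factors that other lymphocytes also carry. Il13, Il5 and Il9r had no UMI in the 421 explosion and 442 control members, which allows a share of up to 0.713% and 0.679% with a UMI, but they were at or near 0 in every other group as well.

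Cd8a was the one T cell marker whose CPM in the members was above that in T cells in both libraries, by a small margin in explosion. Rat natural killer cells are known to carry a CD8 alpha homodimer, without the beta chain. Cd8a had 120 UMIs and 412 CPM in explosion members and 565 UMIs and 706 CPM in control members, against 351 and 382 CPM in T cells. Cd8b had 0 UMIs in explosion and 5 in control members, and 78.9 and 112 CPM in T cells. Cd8a had a UMI in 103 explosion members and 273 control members. Among genes that the rule did not use, control members with Cd8a had Ccl5 at 32378 CPM, against 25324 CPM in those without, Gzmk at 1963 against 1474 CPM and Eomes at 132 against 199.5 CPM. In explosion members Ccl5 was at 7769 CPM with Cd8a and 7227 CPM without, Gzmk at 900.4 and 810.3 CPM and Eomes at 244 and 253 CPM. This split was chosen after its values were seen, and members with Cd8a were deeper in both libraries, at a median of 705 against 584 UMIs in explosion and 1708 against 1559 in control.

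The requirement for no Cd3, Cd79a or Ms4a1 removed 38 explosion and 115 control barcodes that met the other conditions, or 8.28% and 20.6%, and 30 explosion and 99 control barcodes of them had a Cd3 UMI. In the control library those removed differed from the members, with Cd8b at 161 against 6.25 CPM, Cd5 at 75.2 against 5.00 CPM, Ncr1 at 21.5 against 181 CPM and Tyrobp at 1794 against 4509 CPM. In the explosion library the 38 had no Cd8b or Cd5 UMI, Ncr1 at 110 against 233 CPM, on 3 UMIs in those removed, and Tyrobp at 949 against 1370 CPM.

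**Figure D3:**
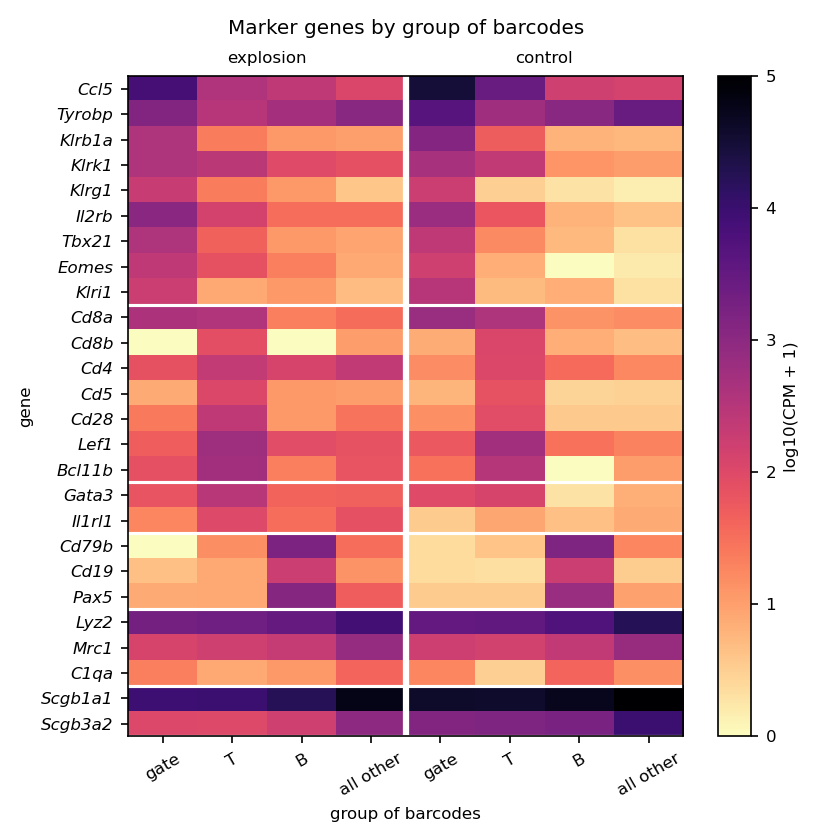
Rows are marker genes in blocks, with natural killer genes first, then T cell, type 2 innate lymphoid, B cell, macrophage and airway secretory genes, and columns are groups of barcodes, with the explosion library on the left and control on the right. Colour is log10 of CPM plus 1. Eomes is at 251 and 155 CPM in the gate and at 7.3 and 0.6 CPM in all other barcodes, while Scgb1a1 is present in every column.

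Members made up 3.38% (3.07 to 3.71) of the explosion barcodes and 2.10% (1.91 to 2.30) of the control barcodes, a ratio of 1.61 (1.41 to 1.85). The size and the direction of this difference changed with the depth and the receptors required. Among barcodes with at least 500 UMIs the ratio was 2.14 (1.84 to 2.48), and with the rule applied after thinning to 500 UMIs it was 1.80 (1.54 to 2.09). When a UMI of the receptors Ncr1, Klre1 or Klrd1 was also required, 137 explosion and 332 control barcodes remained and the ratio was 0.699 (0.569 to 0.856). The same requirement at 500 UMIs gave 82 explosion and 164 control barcodes and a ratio of 1.36 (1.03 to 1.79), an alternative added after the reversal had been seen. A share of barcodes also depends on which other cells survived digestion, red cell lysis and dead cell removal, and no count of cells per lung was measured. Without members that held 2% or more of their UMIs in markers of macrophages, airway, B cells, monocytes or neutrophils, 370 explosion but only 16 control members remained. Airway markers alone had a median of 3.32% per control member and 0.947% per explosion member. Macrophage markers had a median of 0.193% and 0.139%. The cut thus falls mainly on airway transcripts such as Scgb1a1, which had a UMI in every member.

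Within the gate, 3679 genes had a mean of at least 50 CPM over the 2 libraries. Of these, 936 (25.4%) were at least 2-fold higher in explosion and 313 (8.51%) at least 2-fold lower, the size used here as a call. The median log2 ratio of explosion over control over all of them was 0.47, and 69.7% of genes lay above 0, so a value above 0 and below 0.47 is a higher CPM that lies below the median of all genes. With 0.47 subtracted from every gene, 371 were higher and 644 lower, and with Scgb1a1, Rn45s, mitochondrial and ribosomal protein genes left out of the total, 764 were higher and 518 lower. In T cells 36.2% of 3521 genes were higher and 9.12% lower, and in all other barcodes 43.5% of 3445 were higher and 10.4% lower. The surplus of higher genes was thus present there too. The median log2 ratio over all genes measured in each was 0.67 in T cells and 0.80 in the other barcodes. List medians given for those groups are to be read against these values. Of the genes called higher, 483 were under 50 CPM in control members and so were measured only through their explosion level, and of those called lower 94 were under 50 CPM in explosion members. Such genes had to differ to be measured. The shares of all genes, 25.4% higher and 8.51% lower, are the ones against which the counts in each list below are to be read.

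Granule cargo held genes called in both directions. Of the 6 measured genes that the rule did not use, 1 was called higher and 2 lower, with a median log2 ratio of 0.01, and with the 5 rule genes included the median was 0.16. Cst7 (cystatin F), an inhibitor of granule cathepsins, had 87 UMIs and 299 CPM in explosion and 119 UMIs and 149 CPM in control members, 2.01-fold (1.51 to 2.67) higher. Gzmk, another tryptase, had 243 UMIs and 834 CPM in explosion and 1439 UMIs and 1798 CPM in control members, 2.15-fold (1.88 to 2.48) lower. Ctsw, a cathepsin of cytotoxic cells, had 25 UMIs in explosion and 173 in control members, 2.52-fold (1.65 to 4.00) lower. Both were lower in T cells too, at log2 ratios of -1.58 and -1.06. Gzmm had a log2 ratio of -1.34 and Prf1 of 0.65. Serpinb9, which shields the killer from its own Gzmb, had 152 UMIs and 522 CPM in explosion and 258 UMIs and 322 CPM in control members, 1.62-fold higher. Among 13 genes that move and fuse granules, 2 were called higher and 1 lower, with a median of 0.04. Lyst, needed for granule biogenesis, had 63 UMIs in explosion against 64 in control members, 2.71-fold (1.88 to 3.89) higher, and Unc13d (Munc13-4), which primes fusion, 36 against 41 UMIs, 2.41-fold (1.5 to 3.87) higher. Vamp8, a vesicle fusion protein, had 27 UMIs in explosion against 172 in control members, 2.32-fold lower. T cells differed the same way, with log2 ratios of 1.38 for Cst7, 1.43 for Lyst, 1.33 for Unc13d and -1.68 for Vamp8. That of Cst7 rests on 7 explosion UMIs, with a ratio interval of 0.94 to 5.36. In the other barcodes the log2 ratios were 4.17 for Cst7, 1.90 for Lyst, 1.09 for Unc13d and -1.55 for Vamp8. Lyst had 216 and 80.0 CPM in explosion and control members, against 487 and 130 CPM in the other barcodes. Vamp8 had 92.7 and 215 CPM in members, against 214 and 625 CPM in the others.

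The chemokine Ccl5, which draws T cells and monocytes, was lower in the explosion members. It had 2147 UMIs and 7372 CPM in explosion members and 24005 UMIs and 29993 CPM in control members, 4.07-fold (3.89 to 4.25) lower, with a log2 ratio of -2.02 in members and -2.81 in T cells. Of 7 measured cytokines and chemokines, 0 were called higher and 3 lower, and the median was -0.51. Ccl4, another chemokine for monocytes and T cells, had 42 UMIs in explosion against 327 in control members, 2.83-fold (2.05 to 4.01) lower, and Ltb (lymphotoxin beta) 15 against 126 UMIs, 3.06-fold (1.78 to 5.62) lower. Ccl3 was level, with 477 CPM in explosion and 485 CPM in control members, and so was the death ligand Faslg with 536 and 507 CPM. Xcl1, which draws cross-presenting dendritic cells, had 65.2 CPM in explosion and 94.96 CPM in control members. Ifng, the main cytokine of these cells, fell below the level required for the comparison. It had a UMI in 1.66% of explosion and 6.56% of control members at full depth. Among members thinned to 500 UMIs the shares were 0.993% (0.205 to 2.88) in explosion and 2.26% (1.09 to 4.12) in control. These rest on 3 explosion and 10 control members, and the intervals overlap.

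Klrb1a, Tyrobp and Hcst had the lowest ratios among activating receptors and adaptors. Of 9 activating receptors measured, 1 was called higher and 2 lower, with a median of -0.14. Klrb1a, an activating NKR-P1 receptor, had 110 UMIs and 378 CPM in explosion members and 977 UMIs and 1221 CPM in control members, 3.23-fold (2.65 to 3.97) lower. Cd2, an adhesion receptor that costimulates, had 25 UMIs in explosion against 214 in control members, 3.12-fold (2.05 to 4.92) lower. Cd244, the 2B4 receptor, was called higher on 25 explosion against 27 control UMIs. Klrk1 (NKG2D) had 391 CPM in explosion and 469 CPM in control members, and Cd7, a surface glycoprotein of natural killer and T cells, 96.1 and 76.2 CPM. Tyrobp (DAP12), the signalling adaptor of many of these receptors, had 399 UMIs and 1370 CPM in explosion and 3609 UMIs and 4509 CPM in control members, 3.29-fold (2.97 to 3.66) lower. Hcst (DAP10), the adaptor of Klrk1, had 58 UMIs in explosion against 584 in control members, 3.66-fold (2.79 to 4.89) lower. Tyrobp was also lower in all other barcodes, at a log2 ratio of -1.25 against -1.72 in members, and Hcst at -1.02 against -1.86. The T cell log2 ratios were -1.03 for Klrb1a, -0.46 for Cd2, -0.91 for Tyrobp and -1.74 for Hcst. That of Klrb1a rests on 3 explosion UMIs, with a ratio interval of 0.086 to 1.26.

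Of all 19 adaptors and kinases measured, 3 were called higher and 3 lower, and the median, 0.44, lay near that of all genes. Lat, a membrane scaffold, was the other one called lower, on 18 explosion against 112 control UMIs. Fcer1g, the adaptor of Fc and natural cytotoxicity receptors, had 1167 CPM in explosion and 2075 CPM in control members, 1.78-fold lower. The kinase Syk had 103 UMIs in explosion against 120 in control members, 2.36-fold (1.79 to 3.09) higher, and the phosphatase Inpp5d (SHIP1) 62 against 78 UMIs, 2.18-fold (1.54 to 3.09) higher. Of 9 inhibitory and lectin-like receptors, 2 were called higher and 0 lower, with a median of 0.04. Klrc3, of the NKG2 family, had 97 UMIs and 333 CPM in explosion and 105 UMIs and 131 CPM in control members, 2.54-fold (1.91 to 3.38) higher, and Lag3, an inhibitory receptor that binds MHC class II, 46 against 52 UMIs, 2.43-fold (1.60 to 3.69) higher. The log2 ratios of Syk, Klrc3 and Lag3 in T cells were 1.40, 1.84 and 1.49, against 1.24, 1.34 and 1.28 in members. In T cells Syk had 4 and Klrc3 1 explosion UMI, with ratio intervals of 0.61 to 6.67 and 0.057 to 18.9, which include no difference. Klri1, the partner of Klre1, had 175 CPM in explosion and 306 CPM in control members, and Klrd1 a log2 ratio of -0.98, short of a call.

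Transcription factors of the lineage lay above the median of all genes in 12 of 17 cases, with a median of 0.69. Of the 17, 3 were called higher and 0 lower. The median of the same genes was 1.35 in T cells and 2.74 in the other barcodes. Zfp683 (Hobit), linked to tissue residency, had 37 UMIs in explosion against 34 in control members, 2.99-fold (1.83 to 4.91) higher. Bach2, a repressor of effector genes, was 2.30-fold higher on 31 explosion against 37 control UMIs, and Nfil3, which starts the lineage, 2.17-fold higher on 30 against 38. All 3 were under 50 CPM in control members. Bach2 was also higher in T cells, at a log2 ratio of 1.74, and Zfp683 had -0.31 there, on 0 explosion and 12 control UMIs. Eomes and Tbx21 were 1.62-fold (1.19 to 2.18) and 1.55-fold (1.22 to 1.96) higher, short of a call. Id2, which restrains E proteins, was level at 182 CPM in explosion and 199 CPM in control members, and Klf2, which keeps lymphocytes in circulation, had 41.2 and 65.0 CPM.

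Of 11 cytokine receptors and kinases measured, 4 were called higher and 0 lower, with a median of 0.64. The same genes had a median of 1.16 in T cells and 2.80 in the other barcodes. Il21r, Il10ra, Stat5b and Jak3 were under 50 CPM in control members, so they were measured only through their explosion level. Among the 7 at 50 CPM or more in both libraries, 1 was called higher and 0 lower. Il21r had 42 UMIs and 144 CPM in explosion members and 10 UMIs and 12.5 CPM in control members, 11.5-fold (5.70 to 25.8) higher. Il10ra, the receptor for the dampening cytokine interleukin 10, had 54 UMIs in explosion against 34 in control members, 4.36-fold (2.79 to 6.91) higher, and Il12rb2 111 against 116 UMIs, 2.63-fold (2.01 to 3.44) higher. In the other barcodes the ratios of these 3 genes were similar or larger. Il21r was 2.46-fold (1.67 to 3.52) higher in T cells and 1.78-fold (1.04 to 2.89) in B cells, less than in members. Il21r had a log2 ratio of 3.48 in members, 1.32 in T cells and 3.27 in the other barcodes. The same values were 2.12, 1.95 and 2.89 for Il10ra and 1.40, 1.17 and 3.19 for Il12rb2. The T cell value of Il12rb2 rests on 1 explosion and 13 control UMIs. Stat5b, which transmits the interleukin 2 signal, was called higher on 28 explosion against 31 control UMIs. The shared chain Il2rg had 419 CPM in explosion and 452 CPM in control members and the kinase Jak1 350.2 and 447 CPM. Among 18 trafficking and residency genes, 5 were called higher and 0 lower, with a median of 0.65. Itga2 (CD49b), a collagen receptor found on most natural killer cells, had 50 UMIs in explosion against 39 in control members, 3.52-fold (2.27 to 5.5) higher, and Itga4, which binds VCAM1, 58 against 56 UMIs, 2.85-fold (1.94 to 4.18) higher. Itga2 had a log2 ratio of 1.81 in members, 2.75 in T cells and 3.48 in the other barcodes, and Itga4 1.51, 1.07 and 2.36. The T cell value of Itga2 rests on 1 explosion and 4 control UMIs. Cd27, Itgam and Spn were the others called higher, at 2.57-fold, 2.53-fold and 2.16-fold. Cd69, a marker of activation and tissue retention, was level at 721 CPM in explosion and 726 CPM in control members.

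**Figure D4:**
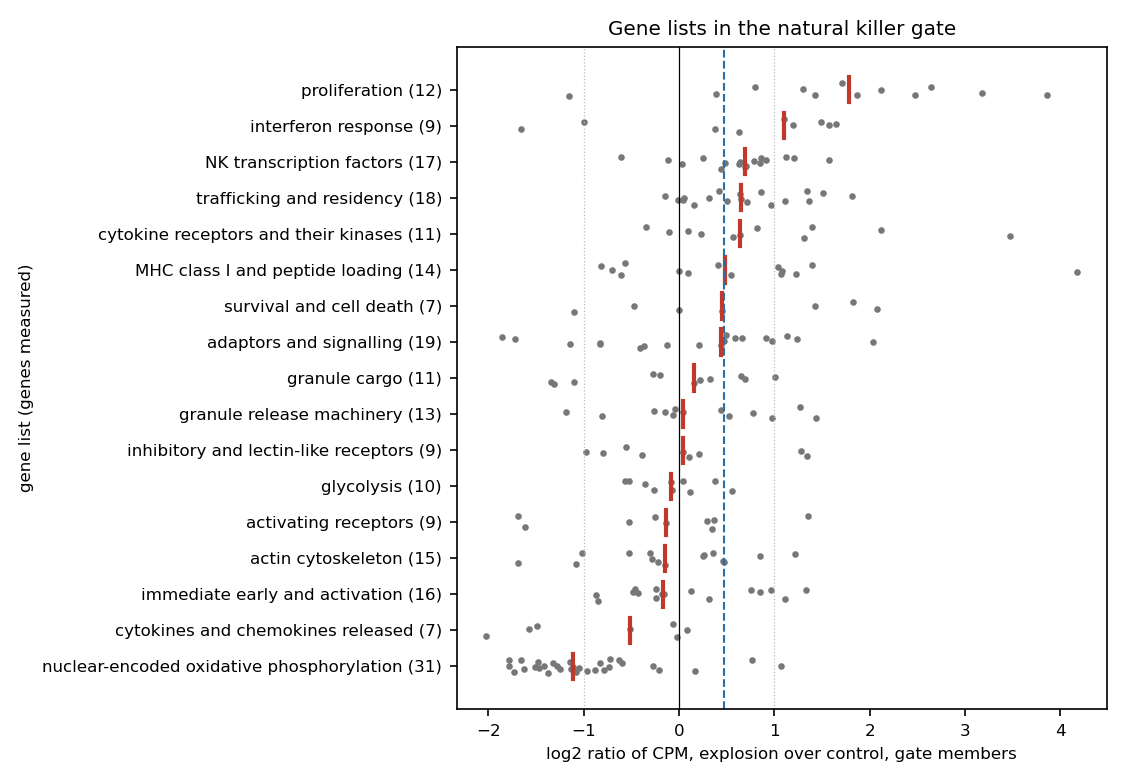
Each row is a gene list with the number of genes measured, each grey point 1 gene and each red bar the list's median, on an x axis of the log2 ratio of CPM, explosion over control, in gate members. The dashed line is the median of all genes at 0.47 and the dotted lines mark 2-fold. Proliferation genes have a median of 1.79, with 5 of the 12 under 50 CPM in control members, and nuclear-encoded oxidative phosphorylation genes have the lowest, at -1.12.

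Of 16 proliferation genes, 12 were measured, with 9 called higher and 1 lower and a median log2 ratio of 1.79 in members, 1.12 in T cells and 1.62 in all other barcodes. Of the 12, 5 (Mcm2, Mcm3, Mcm5, Mcm6 and Birc5) were under 50 CPM in control members and had to be higher in explosion members to be measured. Among the 7 at 50 CPM or more in both libraries, 4 were called higher (Mki67, Top2a, Tubb5 and Pcna) and 1 lower. When members with 2% or more of UMIs in markers of other cells were left out, which kept 16 control members, the list's median was -1.26. The replicative helicase subunits Mcm5 and Mcm6 had 34 and 67 UMIs in explosion members, against 6 and 20 in control members, 15.6-fold (6.46 to 45.4) and 9.21-fold (5.52 to 16.0) higher. In all other barcodes their log2 ratios were 2.35 and 2.41, against 3.87 and 3.18 in members. Mki67, a chromosome surface protein of dividing cells, had 249 UMIs and 855 CPM in explosion and 188 UMIs and 235 CPM in control members, 3.64-fold (3.00 to 4.42) higher, and Top2a, which untangles chromosomes, 98 against 82 UMIs, 3.28-fold (2.42 to 4.46) higher. The histone variant H2az1 was the one called lower, with 254 UMIs in explosion against 1557 in control members, and Hmgb2, a chromatin protein of cycling cells, had 628 and 482 CPM.

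A UMI of Mki67 or Top2a was held by 123 explosion members (29.2%) and 43 control members (9.73%), a split chosen after its values were seen. The other proliferation genes, with H2az1 left out, had a higher summed level in these members in both libraries. They summed to 5992 CPM in explosion members with such a UMI and 1993 CPM in those without, and to 5140 CPM with and 612 CPM without in the control library. Of genes that the rule did not use, Eomes was at 259 CPM with and 245 CPM without in the explosion library, Tbx21 at 363 and 399 CPM and Klrb1a at 268 and 450 CPM. In the control library Eomes was at 127 and 160 CPM, Tbx21 at 278 and 243 CPM and Klrb1a at 955 and 1270 CPM. Such members were also deeper, with a median of 881 against 555 UMIs in explosion and 2508 against 1604 UMIs in control.

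At equal depth of 500 UMIs, which left 302 of 421 explosion and 442 of 442 control members, Mki67 was detected in 25.2% (20.4 to 30.5) of explosion and 5.43% (3.51 to 7.97) of control members, and in 26.1% and 9.28% without thinning. In T cells it was detected in 7.69% in explosion and 1.59% in control, and in B cells in 17.9% of 56 explosion and 0.131% of 762 control barcodes. Top2a was detected in 11.9% of explosion and 1.58% of control members (13.1% and 5.43% unthinned), and Mcm6 in 10.3% and 1.58% (14.5% and 4.07%). Ccl5 was found in 91.4% of explosion and 98.2% of control members (94.3% and 98.4% unthinned), against 5.36% and 1.97% of B cells. Tyrobp was detected in 48.3% of explosion and 88.7% of control members (55.6% and 98.6% unthinned), with 23.2% and 20.2% in B cells, and Klrb1a in 16.2% and 44.6% (22.3% and 82.6%). Gzmk was found in 31.1% of explosion and 55.9% of control members (39.0% and 85.1%), and Hcst in 10.3% and 33.7% (12.8% and 69.5%). Il12rb2 was found in 17.2% of explosion and 7.69% of control members and in 0 of 56 explosion B cells, which allows up to 5.36%, although the unthinned shares, 22.3% and 21.9%, were alike. Il21r was found in 6.95% of explosion and 0.226% of control members (7.60% and 2.26% unthinned) and in 8.93% and 6.30% of B cells, which are known to carry it. Lyz2, a macrophage gene that these cells should lack, was in 44.7% of explosion and 63.1% of control members (53.2% and 91.4% unthinned) and in 60.7% and 69.7% of B cells.

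**Figure D5:**
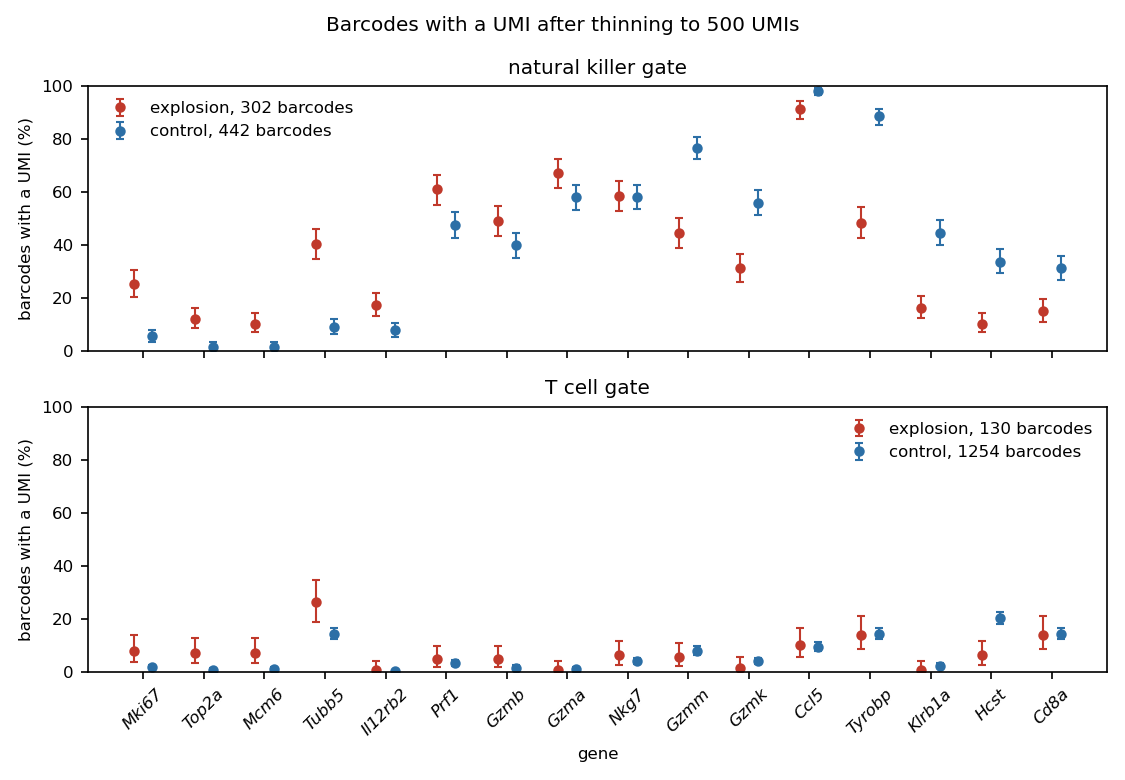
The percent of barcodes with a UMI after thinning to 500 UMIs is shown for gate members (top) and T cells (bottom), with explosion in red, control in blue and bars for 95% Clopper-Pearson intervals. In the gate Mki67 is at 25.2% and 5.43% and Tyrobp at 48.3% and 88.7%, and in T cells Mki67 is at 7.69% and 1.59%.

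Nuclear-encoded oxidative phosphorylation genes had the lowest median of the 17 lists. Of 31 measured, 1 was called higher and 18 lower, with a median of -1.12, against -1.24 for the same genes in T cells and -1.38 in all other barcodes. Cox8a and Cox5a, subunits of cytochrome oxidase, had 54 and 20 UMIs in explosion members, against 515 and 193 in control members, 3.47-fold (2.62 to 4.68) and 3.51-fold (2.21 to 5.88) lower. The catalytic core of ATP synthase went the other way, with Atp5f1b at 170 UMIs in explosion against 222 in control members, 2.10-fold higher, and Atp5f1a at 87 against 141 UMIs, 1.70-fold higher. The glycolysis list was level on the CPM scale, with 0 of 10 called and a median of -0.08. Ldha, which makes lactate, had 364 CPM in explosion and 541 CPM in control members, Tpi1 48.1 and 71.2 CPM, Gpi 164.8 and 127.4 CPM and Pgam1 151 and 104 CPM.

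Interferon-response genes were mixed, with 5 of 9 measured called higher and 2 lower. Their median was 1.10, against 1.09 in T cells. It was -0.068 when the members with 2% or more of UMIs in markers of other cells were left out. Gbp2 and Ly6e were under 50 CPM in control members, so they were measured only through their explosion level. Among the 7 at 50 CPM or more in both libraries, 3 were called higher and 2 lower. Gbp5, a guanylate-binding protein, was 3.14-fold (2.03 to 4.87) higher on 48 explosion against 42 control UMIs, and Ly6e, an interferon-induced surface protein, 2.98-fold (1.84 to 4.82) higher on 39 against 36. The T cell log2 ratios were 1.17 for Gbp5 and -0.44 for Ly6e. Ifi27l2b was 3.19-fold lower on 53 explosion against 464 control UMIs, and Bst2 (tetherin) 2.03-fold lower on 37 against 206. In MHC class I and peptide loading, which supply the ligands of inhibitory receptors, 6 of 14 genes were called higher and 0 lower, with a median of 0.48. Of the 14, 4 (Nlrc5, RT1-CE1, Tap2 and Tap1) were under 50 CPM in control members, so they were measured only through their explosion level. Among the 10 at 50 CPM or more in both libraries, 2 were called higher and 0 lower. RT1-CE1 was 19.2-fold (8.67 to 50.3) higher on 49 explosion against 7 control UMIs and RT1-A2 2.62-fold (2.07 to 3.31) higher on 144 against 151. RT1-CE1 was higher in T cells and the other barcodes as well, at log2 ratios of 3.68 and 5.06, against 4.18 in members. B2m, the shared light chain, had 4233 CPM in explosion and 6286 CPM in control members. The immunoproteasome subunits Psmb8 and Psmb10 had 264 and 144 CPM in explosion members, against 432 and 256 CPM in control members.

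Of 16 immediate early and activation genes, 2 were called higher and 0 lower, with a median of -0.17, against 0.54 in T cells and 1.11 in all other barcodes. The called genes were both negative regulators of inflammatory transcripts. Zfp36, which destabilises cytokine mRNA, had 147 UMIs in explosion against 160 in control members, 2.52-fold (2.00 to 3.18) higher, and Tnfaip3 (A20), which curbs NF-kB, 210 against 268 UMIs, 2.15-fold (1.79 to 2.59) higher. Both had larger log2 ratios in T cells, 2.07 for Zfp36 and 1.73 for Tnfaip3, and in the other barcodes, 2.51 and 3.01. Fos had 2757 CPM in explosion and 3800 CPM in control members, Jund 697 and 1274 CPM and Ier2 433 and 782 CPM. Of 15 actin cytoskeleton genes 1 was called higher and 3 lower, with a median of -0.14. Actb had 16189 CPM in explosion and 6984 CPM in control members, 2.32-fold (2.23 to 2.41) higher, with log2 ratios of 1.21 in members and 1.14 in T cells, whereas the actin-binding thymosins Tmsb10 and Tmsb4x were 3.23-fold and 2.03-fold lower and Capg was lower on 12 explosion against 72 control UMIs. Among 7 survival and death genes 3 were called higher and 1 lower, with a median of 0.45. Bcl2l1 (Bcl-xL), which protects from apoptosis, was 2.68-fold (1.70 to 4.23) higher on 41 explosion against 42 control UMIs, Birc3 was higher on 28 against 18 UMIs, and the death effector Bax was 2.21-fold lower on 15 against 91. Bcl2, a brake on apoptosis, had 144 CPM in explosion and 106 CPM in control members, and its relative Bcl2a1 464 and 645 CPM.

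Over all genes, the highest and lowest ratios were read among those with a mean of at least 100 CPM in the gate. Genes with the prefix mt-, ribosomal protein genes, markers of other cell types and genes named only by a LOC or RGD number were left out. In the library where it was higher, a gene also needed at least 30 UMIs in the gate. Its gate CPM there had to be at least 0.5 times that of the other barcodes. The highest belonged to genes that were also higher in T cells and in all other barcodes of the explosion library. Ttc39a had 96 UMIs in explosion and 3 in control members, a ratio of 87.9 (29.2 to 434), with log2 ratios of 6.24 in members, 6.13 in T cells and 4.48 in all other barcodes. Trnv was next, with 127 UMIs in explosion against 9 in control members and a ratio of 38.8 (19.8 to 86.8), then Rn45s, with 1405 against 157 UMIs and a ratio of 24.6 (20.8 to 29.2), Trnk with 60 against 14 UMIs, Mcm6, Papolg, a poly(A) polymerase, with 68 against 23, Mcm4, a further helicase subunit, with 52 against 19 and Ins2, an insulin gene, with 69 against 27. Of these 8, Ttc39a, Mcm6 and Mcm4 had higher log2 ratios in members than in the other barcodes, with Mcm4 at 2.89 against 2.32. The lowest ratio was that of Tmsb15b2, a thymosin, with 21 UMIs in explosion and 305 in control members, 5.29-fold lower. It had log2 ratios of -2.37 in members, -1.31 in T cells and 0.55 in all other barcodes. Next were the respiratory chain subunit Uqcrfs1 (11 explosion against 151 control UMIs), the initiation factor Eif1 (96 against 1219), Bloc1s1 (11 against 137), Tmbim4 (11 against 131), the ribosomal protein precursor Fau (228 against 2606), Ccl5 and Pgls, an enzyme of the pentose phosphate pathway (14 against 161).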

How the data were processed

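The deposited matrices held raw UMI counts, whole numbers for each gene and barcode, written by cellranger 7.1.0 per the file headers. The labels' protocols give 10x Chromium 3' chemistry and Illumina sequencing. In the submitters' processing notes bcl2fastq 2.20, Cell Ranger 6.1.1 and 2 builds (rn6, mRatBN7.2) are named, without saying what each build was used for. The matrices list 42172 genes, and droplets without cells were not used here. The members, gene lists and comparisons were chosen with earlier results of these data known.

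UMIs were summed per library over the gate, over T cells (at least 2 UMIs of Cd3e, Cd3d and Cd3g, at 0.1% of UMIs or more), B cells (the same with Cd79a, Cd79b and Ms4a1) and all barcodes outside the gate. T cells had no UMI of Cd79a or Ms4a1, and B cells none of the Cd3 genes. The 0.1% condition was added after the control B cells were seen to hold macrophage UMIs. CPM is a gene's sum over all UMIs of the group, scaled to 1000000. Ratios are explosion over control with exact conditional Poisson intervals, and shares have Clopper-Pearson intervals, both at 95%. Log2 ratios had 0.5 counts added to each sum. A gene was measured when its mean over the libraries was at least 50 CPM. In each list the 2 highest and 2 lowest ratios among members with 30 UMIs or more in 1 library were named. Over all genes the 8 highest and 8 lowest with a mean of at least 100 CPM were named. Left out were markers of other cells, hemoglobin, immunoglobulin, T cell receptor, mitochondrial and ribosomal protein genes, and genes named only by a LOC or RGD number. These also needed 30 UMIs or more in the library where they were higher. Their gate CPM there had to be at least 0.5 times that of the other barcodes. The 10 genes with the largest ratio of gate to other barcodes were named too. Other genes in the text were named after their values were seen.

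Mitochondrial genes were taken by the symbol prefix mt-. Those with UMIs were mt-Rnr1 and mt-Rnr2, both ribosomal RNAs, and no member had over 25% of its UMIs in them. Mitochondrial genes under other symbols were not looked for, so the 25% limit does not cover them. Scrublet (scanpy 1.11.5) called 511 explosion and 1775 control barcodes as doublets, 23 and 24 of them members, which were kept, with removal as an alternative. Of 442 list and marker symbols 431 were found, 1 through an older symbol. The interval code was tested on simulated data. Numpy 2.4.6, scipy 1.17.1 and pandas 2.3.3 were used. A few named genes are not reported here.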

Additional observations from a re-analysis of the deposited data

How the results depend on the processing

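The ratio of gate shares, 1.61, was 2.14 among barcodes with at least 500 UMIs, 1.30 with at least 3 rule genes and 0.699 with a UMI of Ncr1, Klre1 or Klrd1 required, which turned its direction. With that receptor requirement at 500 UMIs, an alternative added after the data were seen, it was 1.36. Leaving out members with 2% or more of UMIs in markers of other cells gave 39.2, since only 16 control members were left (370 in explosion). Against 936 higher and 313 lower genes, subtraction of the median gave 371 and 644, a minimum of 20 CPM 1918 and 523, and no minimum 4263 and 816. The lower count was 518 with Scgb1a1, Rn45s, mitochondrial and ribosomal protein genes out of the total. It was 667 without the members at 2% or more of UMIs in markers of other cells. In that last setting, which rests on 16 control barcodes, the medians of the interferon list (-0.068) and the proliferation list (-1.26) and the log2 ratios of Ctsw (1.92), Unc13d (-0.23) and Capg (2.36) reversed. The cause was not tested. Of 240 list medians recomputed, 236 stayed within the limits set for them, and of 1425 values of named genes, 1293 did. No paired analysis was possible because each group had 1 library and no test was run. Depth limits the explosion members most, where many named genes rest on fewer than 50 UMIs.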
